A study of Rattus norvegicus with 10 samples.

Results

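Interferon response and antigen processing genes were followed in HSC-2 cells, a rat line, across 5 lines and 2 passages. Probe sets whose platform annotation gives exactly 1 symbol, with that symbol among 39 listed names, were taken, and for a gene with several such probe sets the one with the highest mean over the 10 arrays was used. A probe set of this kind was found for 36 of the 39 names, and 35 of them lay above the floor of the table on at least 1 array and were tested, out of 13286 genes measured in this way. Mx1 was listed at the floor on all 10 arrays. Gbp5, Ddx58 and Rigi had no probe set with that symbol alone (Ddx58 and Rigi are names of the same gene).

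HSC-2 is a Wistar rat line labelled as hepatic stellate cells, the vitamin A storing pericytes of the liver that make collagen when activated. The 5 lines were untransfected HSC-2, HSC-2 transfected with a scrambled control (abbreviated scr in the labels), and 3 transfected clones, S1, S4 and S5, that overexpress rno-miR-146a. Each line was measured at passage 42 and at passage 43, with 1 array each, and all lines were grown in high-glucose medium with serum and antibiotics. The untransfected and the scrambled line are the study's controls. Each clone is 1 clone and each control 1 line, and no label says whether the scrambled line was cloned. Nor does any label call the passages separate cultures, so a p-value between 2 lines rests on the spread from array to array alone, which may be technical.

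Type I interferon binds a receptor that contains Ifnar1, and type II interferon a receptor that contains Ifngr1. Both signal through receptor-bound kinases. A complex that contains Stat2 and Irf9 binds the interferon-stimulated response element in promoters after type I interferon, and the gamma-activated site serves the response to type II interferon. The induced genes encode sensors of viral RNA, antiviral effectors, the ubiquitin-like modifier Isg15 and the machinery that cuts peptides and loads them on class I molecules. miR-146a is known as a brake on Toll-like receptor signalling through Irak1 and Traf6, and in human cells IRF5 has been reported as one of its targets.

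The agent that the clones overexpress is shown with its seed, bases 2 to 8, in capitals, from the RefSeq table of the rat assembly GRCr8 (chr10:28350053-28350074, minus strand).
rno-miR-146a-5p: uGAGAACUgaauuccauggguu

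The next sequences are the 250 bases upstream of the start of the 4 genes that were called in at least 1 comparison below without a replicate block, had an entry in the RefSeq promoter table (GRCr8) and had the widest range of line means. Capitals mark the core of the interferon-stimulated response element, searched as GAAANNGAAA on both strands.
Cxcl10 (chr14:15988816-15989065, plus strand): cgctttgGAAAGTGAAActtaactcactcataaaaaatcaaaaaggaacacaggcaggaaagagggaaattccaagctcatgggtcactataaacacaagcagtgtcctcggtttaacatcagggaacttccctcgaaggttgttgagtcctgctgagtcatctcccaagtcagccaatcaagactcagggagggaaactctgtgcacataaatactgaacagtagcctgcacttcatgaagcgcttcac
Tap2 (chr20:4652297-4652546, minus strand): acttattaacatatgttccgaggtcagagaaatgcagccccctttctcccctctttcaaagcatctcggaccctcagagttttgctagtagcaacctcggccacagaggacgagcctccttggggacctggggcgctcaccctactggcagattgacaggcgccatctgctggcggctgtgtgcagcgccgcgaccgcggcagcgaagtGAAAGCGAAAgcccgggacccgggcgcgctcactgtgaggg
Ifitm3 (chr1:205541759-205542008, minus strand): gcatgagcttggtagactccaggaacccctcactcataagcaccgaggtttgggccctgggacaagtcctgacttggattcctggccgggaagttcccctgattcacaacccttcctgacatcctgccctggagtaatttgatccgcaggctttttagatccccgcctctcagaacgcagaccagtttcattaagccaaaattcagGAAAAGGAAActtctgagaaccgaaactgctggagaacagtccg
Oasl (chr12:47356293-47356542, minus strand): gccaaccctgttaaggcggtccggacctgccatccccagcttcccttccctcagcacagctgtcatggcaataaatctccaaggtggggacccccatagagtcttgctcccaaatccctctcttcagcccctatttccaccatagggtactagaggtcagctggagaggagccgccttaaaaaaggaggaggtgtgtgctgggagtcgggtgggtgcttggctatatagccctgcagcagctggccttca

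Cxcl10 held 1 such core far upstream, Tap2 and Ifitm3 held 1 each close to the start, and the window of Oasl held none. Shorter windows of 30 bases around the first core are shown for the 5 genes that stood out on a single array of the scrambled line and had an entry with a core, and these were chosen after their values were seen.
Irf7 (chr1:205800073-205800102, minus strand): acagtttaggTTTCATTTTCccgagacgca
Oas1a (chr12:41330415-41330444, plus strand): cccctctcggGAAATGGAAACTGAAAatct
Ifit3 (chr1:241527272-241527301, plus strand): tttaagtctgTTTCAGTTTCtagtttccac
Rsad2 (chr6:48788248-48788277, minus strand): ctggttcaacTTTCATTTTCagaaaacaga
Ifi44 (chr2:243303847-243303876, minus strand): gcacactgagTTTCAGTTTCatttcccagg

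Of the 36 members with a probe set, 30 had a promoter entry, and 19 of these (63.3%) held the response element core within 250 bases upstream, against 3.41% of all 33469 promoters in the table. The gamma-activated site core, searched as TTCNNNGAA on both strands, was found in 8 of the 30 (26.7%), among them Irf1, Irf9, Psmb8 and Irgm, against 7.67% of all promoters. Cores of both kinds overlapped in Bst2 alone. Tap1 and Psmb9 start 457 bases apart on opposite strands of chromosome 20, and the core in the Tap1 window lies between the starts. These matches describe letters in a window and not sites in use.

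Before the results, the arrays were checked against their labels. Of 10 hepatic stellate markers, among them Des, Vim, Pdgfrb, Col1a1 and Acta2, 9 were above the floor on at least 1 array, but Lrat, a vitamin A storage enzyme of quiescent stellate cells, was listed at the floor throughout. In all, 3 of the 10, Lrat included, stayed below a log2 intensity of 6 on all arrays. The smooth muscle actin gene Acta2 was lower in the scrambled than in the untransfected line (log2 difference -2.89, SE 0.15, limma adjusted p = 0.000171). Of 12 measured macrophage and leukocyte markers, 8 stayed below a log2 intensity of 6 and Cd163 and Adgre1 were at the floor, and their summed intensity was 972 to 1230 over the 10 arrays. Csf1r was the only one called between the control lines, higher in the scrambled line (0.78, SE 0.16, adjusted p = 0.0325). With passage number as a replicate block Des, higher in the scrambled line, and Lum, lower, were also called between the control lines. Without that block no endothelial, hepatocyte or biliary marker was called by limma in any comparison, and with it the endothelial marker Tek was, among the 5 lines, between the control lines (higher in the scrambled line) and between clones and scrambled line (lower in the clones). The part of these markers in the results was not tested. The 3′ to 5′ ratios, a sign of RNA quality, ran from 1.39 to 1.85 for actin and from 1.01 to 1.25 for GAPDH, with 1.59 and 1.01 on the scrambled passage 43 array. Both untransfected arrays were the highest, with 1.85 and 1.81 for actin and 1.16 and 1.25 for GAPDH on passages 42 and 43. The genes of the interferons Ifnb1 and Ifng were at the floor on all 10 arrays. Overexpression of the miRNA itself was not checked here.

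Throughout, a level is the log2 of the deposited intensity of 1 probe set, in which the floor is 4.32, and a difference is a difference of such levels. Levels of different genes are not set against each other, since probes differ in brightness. A gene was called where its limma p, adjusted over all 27520 tested probe sets, was below 0.05. In bulk RNA a change in the share of responding cells and a change in level per cell cannot be told apart.

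Across the 5 lines, 4 of the 35 members differed, against 5.60% of all probe sets: the T cell attracting chemokine Cxcl10 (adjusted p = 0.00149), the oligoadenylate synthetase family member Oasl (0.00689), the peptide transporter subunit Tap2 (0.0194) and the dynamin-like antiviral GTPase Mx2 (0.0443). With passage number as a replicate block 6 members were called, Gbp2 and Psmb9 being added, against 11.1%. Without a single array the count was 2 to 8, against 2.77% to 6.35% of all probe sets, so that Mx2 and Tap2 were lost in most of those fits and only Cxcl10 was called in each of them. The widest range of line means was that of Cxcl10, 2.45 on the log2 scale, followed by Isg15 with 1.69, Usp18 with 1.52 and Irf7 with 1.50.

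**Figure D1:**
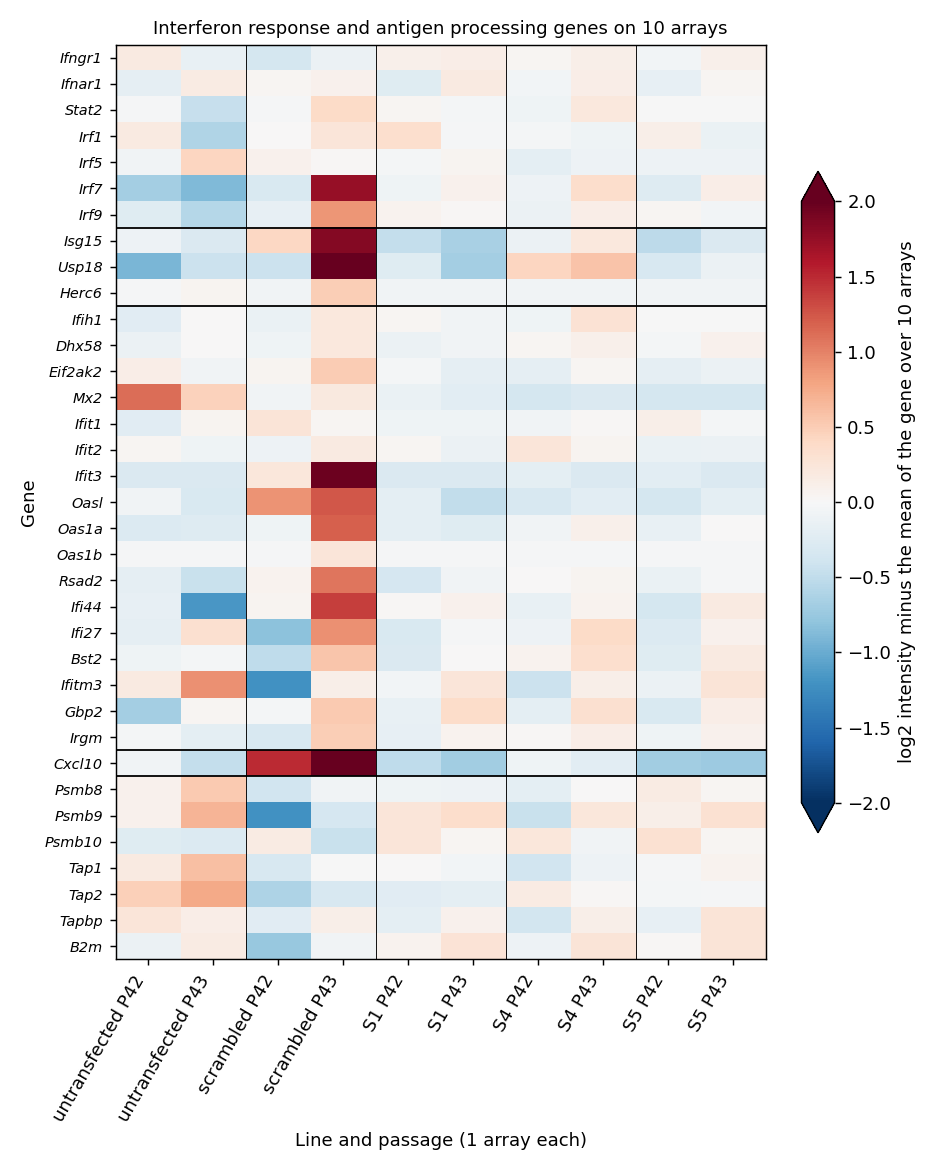
Each row is a gene and each column is 1 array, and the colour is the log2 intensity minus the mean of that gene over the 10 arrays, with lines drawn between groups of genes by role. The scrambled passage 43 column is red for most antiviral genes, and 19 of the 35 genes have their highest value there.

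Between the control lines, members were called in both directions. Cxcl10 and Oasl were higher and Tap2 lower in the scrambled than in the untransfected line, which is 3 of 35 members called against 6.10% of all probe sets. With passage number as a replicate block 8 were called, 4 higher (Cxcl10, Oasl, Isg15, Gbp2) and 4 lower (Tap2, Tap1, Psmb9, Ifitm3), against 13.1%. The median log2 difference over the 35 members was 0.15, with 24 above 0, and that over all probe sets rounded to 0.

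Cxcl10 had levels of 8.44 and 8.93 in the scrambled line at passages 42 and 43, and of 6.86 and 6.46 in the untransfected line. In the clones its levels were 6.44 and 6.24 (S1), 6.86 and 6.73 (S4) and 6.25 and 6.21 (S5). Both scrambled arrays lay above the other 8. The difference between the control lines was 2.02 on the log2 scale, 4.05-fold, with an SE of 0.19 (adjusted p = 0.00174). Leaving out the scrambled passage 43 array left 1.77 (adjusted p = 0.0112), and leaving out passage 42 gave 2.27 (adjusted p = 0.006).

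Oasl had levels of 6.93 and 7.26 in the scrambled line and of 5.96 and 5.71 in the untransfected line. The 6 clone arrays lay between 5.53 and 5.83. The scrambled line was again above the other 8 arrays, by 1.26 over the untransfected line (2.39-fold, SE 0.16, adjusted p = 0.00557). Isg15, the modifier that is joined to proteins during the response, had levels of 7.35 and 8.77 in the scrambled line and of 6.84 and 6.66 in the untransfected line. Its clone levels were 6.46 and 6.29 (S1), 6.83 and 7.15 (S4) and 6.41 and 6.65 (S5). Its difference between the control lines, 1.32 with an SE of 0.39, was not called (adjusted p = 0.0914) and was called with the replicate block (0.0498). In all, 5 members had both scrambled arrays above the other 8, namely Cxcl10, Oasl, Isg15, Ifit3 and Rsad2, against 7.21% of all probe sets.

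Tap2, a subunit of the transporter that carries peptides into the endoplasmic reticulum, went the other way. Its levels were 6.82 and 7.11 in the scrambled line and 7.90 and 8.18 in the untransfected line. The clones had 7.21 and 7.23 (S1), 7.59 and 7.45 (S4) and 7.39 and 7.41 (S5). Both scrambled arrays lay below the other 8, as for no other member (7.97% of all probe sets), and both untransfected arrays lay above the other 8. The difference between the control lines was -1.08 (2.11-fold lower, SE 0.14, adjusted p = 0.00557).

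Of the 7 antigen processing members, 6 had a lower mean in the scrambled than in the untransfected line, with a median log2 difference of -0.53. Psmb9, a catalytic subunit of the immunoproteasome, had levels of 6.87 and 7.75 in the scrambled line and of 8.16 and 8.75 in the untransfected line (-1.15, SE 0.33, adjusted p = 0.0882, and 0.0111 with the replicate block). Tap1, the partner of Tap2, had 8.26 and 8.58 against 8.76 and 9.19 (-0.55, SE 0.18, adjusted p = 0.113, and 0.036 with the block). Psmb8, another immunoproteasome subunit, had a difference of -0.53 (SE 0.17, adjusted p = 0.113), and Psmb8 and Tap1 were both called when the untransfected passage 42 array was left out, which gave 5 calls, against 11.7% of all probe sets. The membrane protein Ifitm3, which blocks viral entry, had 10.21 and 11.54 against 11.60 and 12.33 (-1.10, SE 0.43, adjusted p = 0.188, and 0.0245 with the block). On the scrambled passage 42 array 9 members had their lowest value of all 10 arrays, against 13.0% of all probe sets, and 4 of these were antigen processing genes (Psmb8, Psmb9, Tap2, B2m).

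**Figure D2:**
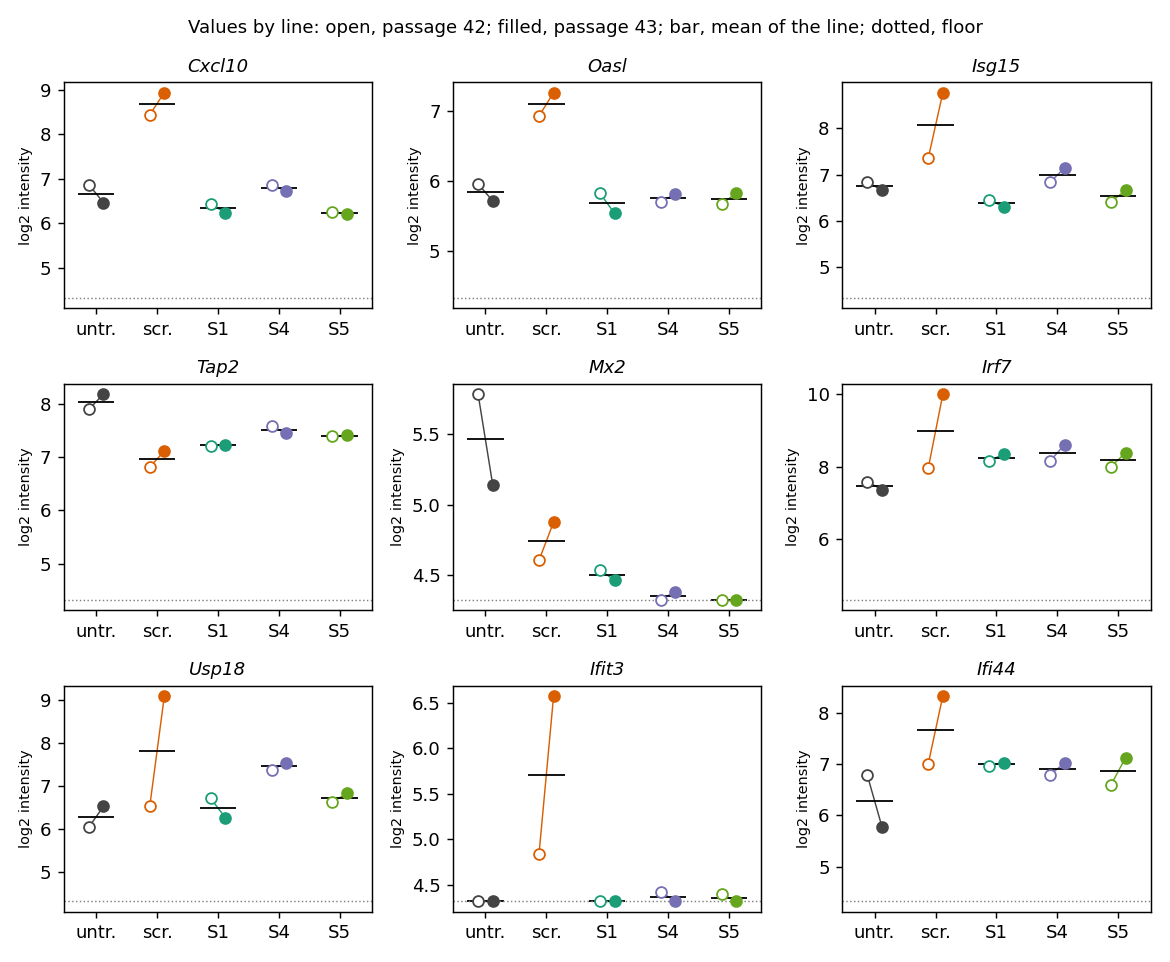
Log2 intensity of 9 genes by line, with passage 42 as open and passage 43 as filled circles, 1 array each, the mean of the line as a bar and the floor of the table dotted. Cxcl10 and Oasl are high in the scrambled line at both passages, Irf7, Usp18, Ifit3 and Ifi44 at passage 43, and Tap2 and Mx2 are highest in the untransfected line.

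The comparison of the 3 clones with the 2 control lines, on line means, asked whether overexpression of miR-146a moved these genes. No member was called by limma, against 0.898% of all probe sets (247 of 27520), while 3 had an unadjusted p below 0.05. A fit over the 10 arrays that took line as a random block gave 0 as well. The median log2 difference over the members was -0.05, with 13 of 35 above 0.

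For Irf7 and Ifi44 the means of the control lines lay on either side of all 3 clones, a spread that the SE of this comparison includes. The mean of Cxcl10 was 6.45 ± 0.30 (SD, n = 3) in the clones, against 8.68 in the scrambled and 6.66 in the untransfected line, and the difference of -1.22 had an SE of 0.61 (adjusted p = 0.427). Irf7, the factor that amplifies type I interferon production, averaged 8.27 ± 0.10 (SD, n = 3) in the clones, 8.98 in the scrambled and 7.47 in the untransfected line, and differed by 0.05 with an SE of 0.44 (adjusted p = 0.973). Without the untransfected line 6 members were called, against 6.15% of all probe sets (Cxcl10, Oasl, Ifit3, Irf7 and Ifi44 lower and B2m higher). Without the scrambled line 5 were, against 10.8% (Mx2 lower and Irf7, Irf9, Ifi44 and Psmb10 higher), so that Irf7 and Ifi44 were called in opposite directions. Without any 1 clone the count was 0, in fits that called at most 2 of 27520 probe sets.

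Irf5, reported as a target of miR-146a in human cells, had levels of 7.35 and 7.85 in the untransfected line, 7.51 and 7.44 in the scrambled line and 7.22 to 7.46 on the 6 clone arrays, which overlapped the controls. Its difference was -0.20 (SE 0.08, adjusted p = 0.332). Psmb10, the remaining immunoproteasome subunit, averaged 8.17 ± 0.05 (SD, n = 3) in the clones, with 7.78 in the untransfected and 7.90 in the scrambled line, a difference of 0.33. With an SE of 0.07 this had the smallest p among the members (limma adjusted p = 0.139). The RNA-activated kinase gene Eif2ak2 had a difference of -0.26 (SE 0.09, adjusted p = 0.288).

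Mx2 was the only member with all 6 clone arrays below the 4 control arrays (3.44% of all probe sets), and no member had them all above (4.06%). Its levels were 5.79 and 5.14 in the untransfected line, 4.60 and 4.88 in the scrambled line, 4.54 and 4.46 in S1, and at or within 0.06 of the floor in S4 and S5. Against both control lines the difference was -0.71 (SE 0.22, adjusted p = 0.242). Against the untransfected line alone it was -1.07 (SE 0.16, adjusted p = 0.00792), and S5, at the floor on both arrays, was at least 2.21-fold lower than the untransfected line. Another probe set annotated to Mx2 gave -0.19 against the untransfected line (SE 0.21, adjusted p = 0.659), so the probe sets of this gene disagreed.

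**Figure D3:**
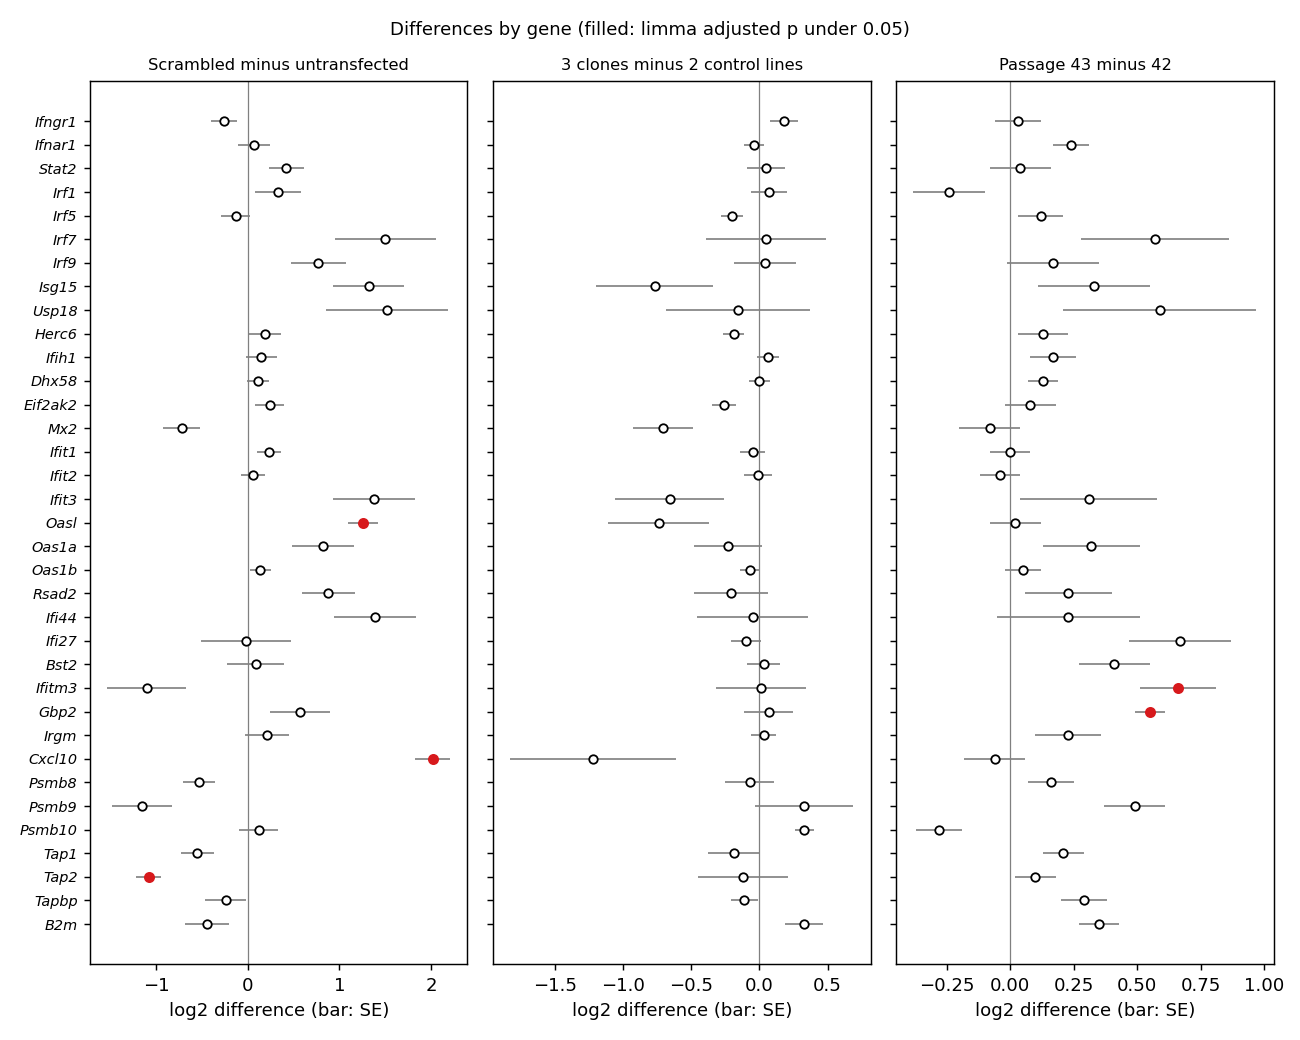
Log2 differences with their SE as bars for the 35 tested genes in 3 comparisons, filled where the limma adjusted p is below 0.05. Cxcl10, Oasl and Tap2 are filled between the control lines, no gene is filled between clones and control lines, and Gbp2 and Ifitm3 are filled between passages.

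The clones were also set against each control line in turn. These comparisons and the one between the controls share arrays, so their values stand side by side only. With 1 control line each, their p-values rest on the spread between passages of a line and not on that between lines. Against the scrambled line 3 of 35 members were called, all lower in the clones, against 6.90% of all probe sets: Cxcl10 (-2.23, SE 0.16, adjusted p = 0.000222), Oasl (-1.37, SE 0.13, adjusted p = 0.00102) and Isg15 (-1.43, SE 0.32, adjusted p = 0.0351). With the replicate block 7 were called, Ifit3 lower and Psmb9, Tap2 and B2m higher being added, against 11.5%. Among the markers Acta2 was higher in the clones than in the scrambled line (2.23, adjusted p = 6.3e-05), while Csf1r (-0.84, adjusted p = 0.00853), the T cell marker Cd3e (-0.42, adjusted p = 0.0477) and Des (-0.73, adjusted p = 0.0249) were lower, and their part was not tested. Isg15 was lost without any single array other than that of the scrambled line at passage 42 (adjusted p 0.0726 to 0.0964), and without scrambled passage 43 its difference was -0.72.

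Against the untransfected line Mx2 and Tap2 were called, both lower in the clones, which is 2 of 35 against 8.63% of all probe sets. Tap2 was lower by 0.66 on the log2 scale (log2 difference -0.66, SE 0.11, adjusted p = 0.0125) and was no longer called without the untransfected passage 43 array (-0.52, adjusted p = 0.101). With the replicate block 4 were called, Tap1 lower (-0.47, adjusted p = 0.0288) and the guanylate-binding GTPase Gbp2 higher (0.35, adjusted p = 0.0285) being added, against 15.0%. Without the untransfected passage 42 array the count was also 4, with Irf5 and Tap1 lower, against 12.3% of all probe sets. Both untransfected arrays lay above the other 8 for Mx2, Tap1 and Tap2 (9.30% of all probe sets) and below them for Irf7, Irf9 and Oas1a (7.18%). These are also the arrays with the highest 3′ to 5′ ratios, whose part was not tested, nor was that of Acta2, which was lower in the clones (-0.66, adjusted p = 0.0154), or of Lum and Pdgfrb, lower with the block.

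Among the 3 clones no member was called, against 0.0327% of all probe sets, and only Cxcl10 had an unadjusted p below 0.05 in the limma F test. Usp18 had the widest spread of clone means, 6.49 in S1, 7.45 in S4 and 6.73 in S5 (6.89 ± 0.50, SD, n = 3). In contrast, the clone means of Irf9 were 8.27, 8.23 and 8.21.

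For a group of antiviral genes the passage 43 array of the scrambled line stood apart from the other 9. Of the 35 members, 19 had their highest value on that array, against 11.9% of all probe sets, and 7 exceeded every other array by at least 1 on the log2 scale, against 0.120%. These 7 were Irf7, Isg15, its protease Usp18, the RNA-binding protein Ifit3, the 2-5A synthetase Oas1a, Rsad2 (viperin) and Ifi44. None of the 7 antigen processing members was among the 19. Oas1b was, but it lay at the floor on the other 9 arrays. It passed the floor filter through this array alone, so its place among the 19 was fixed by the filter. A single array has no replicate, so no test of it was made, and its cause was not tested.

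Usp18, which removes Isg15 from proteins and dampens the type I receptor, had a level of 9.09 on that array, against 6.53 at passage 42 of the same line. On the other 8 arrays it lay between 6.05 and 7.52. Irf7 had 10.00, against 7.95 at passage 42, and on the other arrays lay between 7.37 and 8.61. Ifit3 had 6.57, against 4.84 at passage 42. Elsewhere Ifit3 was at the floor or within 0.11 of it, which makes the scrambled mean at least 2.61-fold above those of the untransfected line and S1.

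Ifi44, an interferon-induced protein of little known function, had 8.33 and lay between 5.78, on untransfected passage 43, and 7.12 elsewhere. Oas1a had 6.41 against 5.13, with 4.94 to 5.31 on the other arrays. Rsad2, which halts viral replication, had 5.97 against 4.96, with 4.44 to 4.94 on the others. Irf9, the DNA-binding subunit of the complex with Stat2, had 9.11 against 8.06, with 7.65 to 8.35 on the others. All these genes were higher on the scrambled passage 43 array than on each of the other 9.

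From passage 42 to 43 of the scrambled line 11 members were higher by at least 1 on the log2 scale, against 0.727% of all probe sets. In the other lines the number was 0, against 0.643% (untransfected), 0.407% (S1), 0.461% (S4) and 0.334% (S5). The 11 were Irf7, Isg15, Ifit3, Oas1a, Rsad2, Ifi44, Usp18, Irf9, Ifi27, the viral tether Bst2 and Ifitm3. Over all 35 members the median change was 0.45 in the scrambled line, with 32 higher at passage 43, and 0.00, 0.00, 0.17 and 0.10 in the untransfected line, S1, S4 and S5. The median over all probe sets was within 0.01 of 0 in each line. Cxcl10 and Oasl, already high at passage 42, were not among the 11.

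The results between lines leaned on the choice of scrambled array. Without scrambled passage 42, 10 members were called between the control lines, against 2.21% of all probe sets, and 10 between clones and scrambled line, against 4.15%. Irf7, Irf9, Isg15, Ifit3, Oasl, Oas1a, Rsad2, Usp18 and Cxcl10 were in both sets, with Tap2 in the former and Herc6, the Isg15 ligase of mice, in the latter. Irf7 was then 2.53 above the untransfected line (SE 0.25, adjusted p = 0.00935) and Usp18 2.80 (SE 0.26, adjusted p = 0.0077). Without scrambled passage 43, Irf7 was 0.48 above the untransfected line and Usp18 0.24. The log2 differences between the control lines were then 1.77 for Cxcl10, 1.09 for Oasl and -1.22 for Tap2. Between clones and scrambled line they were -1.98 for Cxcl10, -1.20 for Oasl and -0.72 for Isg15. In those fits the lone scrambled array was assumed to vary like the other lines.

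**Figure D4:**
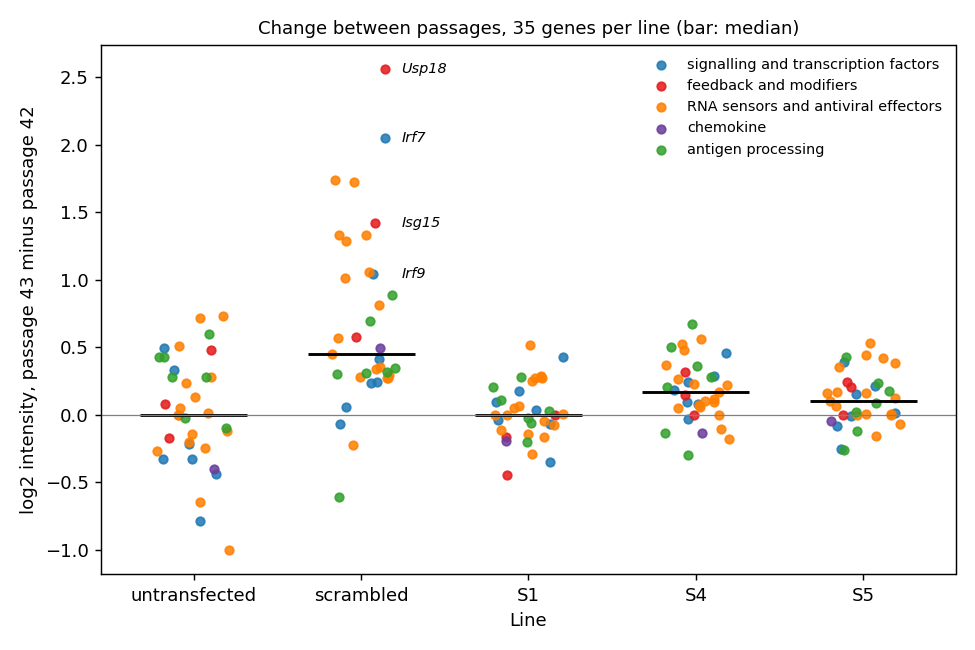
Log2 intensity at passage 43 minus passage 42 for each of the 35 genes in each line, coloured by role, with the median as a bar and 4 genes labelled. The scrambled line has a median of 0.45 and a highest change of 2.56 (Usp18), while in the other lines no gene is higher by 1 or more at passage 43.

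Between the passages, with line as a block, Gbp2 and Ifitm3 rose, which is 2 of 35 members called against 5.52% of all probe sets. Gbp2 went from 6.80 to 7.51 in the untransfected line, 7.44 to 8.01 in the scrambled line, 7.33 to 7.85 in S1, 7.28 to 7.80 in S4 and 7.17 to 7.61 in S5. It was higher at passage 43 in all 5 lines, by 0.55 on average (SE 0.06, adjusted p = 0.0106). Ifitm3 was also higher in all 5 lines, by 0.66 (SE 0.15, adjusted p = 0.0483). Just outside the threshold were B2m, the light chain of class I molecules, with 0.35 (SE 0.08, adjusted p = 0.0576) and Psmb9 with 0.49 (SE 0.12, adjusted p = 0.0655).

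In all 5 lines 8 members were higher at passage 43, namely Gbp2, Ifitm3, B2m, Psmb9, Ifi27, Bst2, the RNA sensor Dhx58 and the receptor chain Ifnar1, against 9.57% of all probe sets. Most of the other probe sets annotated to Ifnar1 did not rise in all 5 lines. Psmb10 was lower in all 5 (-0.28, SE 0.09, adjusted p = 0.116), against 11.0%. Of the 35 members 29 had a positive mean change, with a median of 0.17, against about 0 over all probe sets. Without any 1 clone array no member passed, and nor did any other probe set. Ifitm3 was lost without any single array (adjusted p 0.0573 to 0.151). With line as a block, leaving out 1 array takes its whole line out of the estimate between passages, so each of those fits left out a line. Over other antigen presentation genes, 5 of 23 tested rose and 0 fell: the class I genes RT1-M3-1 (0.62), RT1-CE5 (0.48), RT1-CE16 (0.39) and RT1-CE10 (0.39), whose close sequences can share probes, and the proteasome activator subunit Psme1 (0.26), with adjusted p from 0.00938 to 0.0404. The stellate marker Lum rose as well (1.58, SE 0.21, adjusted p = 0.0141), and its part was not tested.

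The change between passages was not shown to differ between clones and control lines: 0 of 35 members were called by limma, against 0.0182% of all probe sets, and 4 had an unadjusted p below 0.05. The largest of these was Usp18, whose change was smaller in the clones (log2 difference -1.55, SE 0.58, adjusted p = 0.57).

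The remaining members had narrow ranges of line means. Receptor chains had a range of line means of 0.12 (Ifnar1) and 0.35 (Ifngr1). For the sensors Ifih1 and Dhx58 it was 0.21 and 0.17, for the tetratricopeptide genes Ifit1 and Ifit2 0.23 and 0.27, and for the immunity-related GTPase Irgm 0.21. Irgm had 7.91 on scrambled passage 42 and 8.72 on scrambled passage 43, its lowest and highest levels on the 10 arrays. The other probe sets annotated to Ifnar1 spread more. Their log2 differences between the control lines ran from -0.25 to 0.61, none called, against 0.07 for the probe set used. Bst2 ranged over 0.35 between lines, with 6.40 and 7.46 on the scrambled arrays. Ifit2 thus lay between 10.16 and 10.53 on all 10 arrays while Ifit3 left the floor in the scrambled line. Another probe set annotated to Ifit2 ran from 8.62, on untransfected passage 42, to 9.34, on scrambled passage 43. Stat2 ranged over 0.42 and Irf1, a factor induced by type II interferon, over 0.37, with the untransfected line lowest for both. Ifi27 lay between 11.02, on scrambled passage 42, and 12.74, on scrambled passage 43. Tapbp, which bridges Tap and class I molecules, ranged over 0.31. Oas1b and Herc6 were above the floor on 1 and 3 arrays and highest, at 4.60 and 4.90, on scrambled passage 43.

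Other genes of the pathway, in lists chosen with earlier results of these data known, were read in the same fits. Between clones and control lines none of 15 other signalling genes, 8 sensors and adaptors, 31 interferon-induced genes and 23 antigen presentation genes was called, while 5, 3, 4 and 3 had an unadjusted p below 0.05. With line as a random block and passage number as a replicate block Isg20 was called, higher in the clones, against 4.38% of all probe sets. Between the control lines the adaptor gene Sting1 (1.37, SE 0.15, adjusted p = 0.00306), the endotoxin receptor gene Tlr4 (1.39, SE 0.19, adjusted p = 0.00669) and the receptor chain gene Il10rb (0.59, SE 0.13, adjusted p = 0.0363) were higher in the scrambled line. Tlr4 (0.90, SE 0.15, adjusted p = 0.0125) and Il10rb (0.68, SE 0.10, adjusted p = 0.00855) were also higher in the clones than in the untransfected line. Il10rb had 8.70 and 8.61 in the scrambled line, 8.19 and 7.93 in the untransfected line and 8.61 to 8.82 in the clones. None of the 31 other interferon-induced genes was called between the control lines, with 11 at an unadjusted p below 0.05 and a median of 0.24. With the replicate block 6 of the 31 were called, 4 higher and 2 lower (Dtx3l, Ifi35, Ifitm1, Nmi, Parp9, Samhd1), against 13.1% of all probe sets. The block also added the signalling gene Irf3 and the antigen presentation genes Psme2, RT1-CE5 and RT1-CE16, all 4 lower in the scrambled line.

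Sting1 had levels of 8.43 and 8.49 in the scrambled line, 7.27 and 6.91 in the untransfected line and 7.52 to 7.86 in the clones. The clones were thus lower than the scrambled line (-0.79, SE 0.12, adjusted p = 0.00862) and higher than the untransfected line (0.58, SE 0.12, adjusted p = 0.0292). Isg20, an RNA exonuclease gene, was lowest in the scrambled line. Its levels were 6.84 and 6.86 there and 7.88 and 7.46 in the untransfected line. The clones had 9.11 and 10.10 (S1), 7.87 and 8.78 (S4) and 8.97 and 9.90 (S5), higher at passage 43 in each. Their mean was 2.27 above the scrambled line (SE 0.35, adjusted p = 0.00862). Ifitm1, of the same family as Ifitm3, had 6.32 and 8.40 in the untransfected line, 4.99 and 5.46 in the scrambled line and 4.32 to 4.79 in the clones. The difference of the clones from the untransfected line was -2.74 (SE 0.46, adjusted p = 0.0119). Against the untransfected line Isg20 (1.46), Samhd1 (0.58) and Cmpk2 (0.54) were higher in the clones, so that 4 of these 31 genes were called, and against the scrambled line Isg20 and Nmi (0.68) were. With the replicate block 7 of the 31 were called against the untransfected line, Dtx3l, Parp9 and Parp12 being added, and 3 against the scrambled line, Ifi35 being added, against 15.0% and 11.5% of all probe sets. Without the block Il10rb and the antigen presentation gene Erap1 (0.43, adjusted p = 0.0489) were higher in the clones than in the untransfected line. The antigen presentation gene RT1-DMb (-0.56, adjusted p = 0.0283) was lower in the clones than in the scrambled line. The shares of all probe sets called were 8.63% and 6.90%. Of the signalling and antigen presentation genes the block added Irf2, Irf8 and Ifi30, all higher in the clones, against the untransfected line, and Jak1, RT1-CE10 and RT1-CE16 (higher) and Ptpn11 (lower) against the scrambled line. Across the 5 lines the block took the calls among the 31 from 1 (Isg20) to 4 and added RT1-CE16, against 11.1% of all probe sets. The constitutive proteasome subunits Psmb5 and Psmb7 gave no call in any comparison. A probe set annotated as Rig1, of which Ddx58 is a synonym by gene identifier, was no member by the rule. Its level was 8.94 on scrambled passage 43 and 7.72 to 8.37 elsewhere.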

How the data were processed

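RNA of 10 HSC-2 samples was labelled with the Affymetrix one-cycle cDNA method, per the labels. The authors deposited 1 table of linear intensity values, for which the submitters' processing notes name RMA. Its lowest value was 20 (14.6% of the values) and its highest 30192. No version of RMA is given, nor any step back from log2 to linear values. Planning had assumed a log2 table, so log2 of the deposited intensities was computed. Below the floor there is no order, so a fold against a line at the floor is a lower bound. Precision is limited by the number of arrays.

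The table held 31099 probe sets, of which 57 controls and 3522 that never left the floor were dropped. Gene names came from the platform annotation. Suffixed probe sets (B2m, Ifitm3, Oas1a and Dhx58 here) may be shared between transcripts, and Ifnar1 had 6 probe sets. Tests used limma 3.58.1 in R 4.3.3 (lmFit, eBayes, Benjamini-Hochberg over 27520 probe sets). Clones and control lines were compared on 5 line means, other line comparisons with 1 coefficient per line over 10 arrays, and passages with line as a block. The fits were tested on simulated data, with noise independent between arrays and changes larger than the differences called for members. That test does not cover smaller changes or paired arrays. Deviations from the line means at equal passage correlated between all 10 pairs of lines (r 0.136 to 0.648), so passage number was taken to pair the arrays, and the blocked value stands beside a result where it changes a call. Values on every array are given for members called or of the widest range. The alternatives were the replicate block, quantile normalisation, the filter on low values, the probe set of largest variance and leaving out arrays or lines. Members and lists were chosen with earlier results of these data known. Sequences came from RefSeq tables of GRCr8, with motifs searched in the 250 upstream bases.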

Additional observations from a re-analysis of the deposited data

How the results depend on the processing

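The counts of members called kept within 1.5 times of their reported value in 96 of 125 alternative fits and moved in 29. A count has no direction, so a change of direction could not show here. Across the 5 lines the count of 4 became 2 with no filter on low values (2.33% of all probe sets), and it moved when 1 array was left out. For clones against control lines the count of 0 became 6 without the untransfected line and 5 without the scrambled line. With passage number as a replicate block, scrambled against untransfected went from 3 to 8, clones against scrambled from 3 to 7 and clones against untransfected from 2 to 4. Leaving out 1 array gave 3 to 10, 2 to 10 and 1 to 4 for these. The shares of all probe sets were 2.21% to 11.7%, 2.43% to 7.65% and 2.2% to 12.3%. The counts of 10 went with 2.21% and 4.15%. Keeping only probe sets of mean log2 above 6 gave 1 of 27 members for clones against untransfected (11.4%), since Mx2 was then not tested. For passage the count of 2 became 0 with no block for line (0.567% of all probe sets), 4 above log2 6 (10.6%) and 1 with no filter (2.01%). It was 0 to 2 without 1 array (0% to 6.17%), which for passage leaves out the whole line. With the replicate block 6 members were called across the 5 lines, and 0 between clones and control lines and among the clones. Of 208 refits of single member values 157 kept their call, 51 lost it and 0 reversed, though tests over several lines have no direction to reverse. These refits were not all separate. For each called member the probe set of largest variance was the probe set already used, so that refit could not differ. Leaving out either array of a line outside a comparison also gave the same fit. Over all probe sets, those called between clones and control lines numbered 247, against 1315 with line as a random block and 14 with no filter. With no filter the count over all probe sets also fell from 1542 to 722 across the 5 lines, 1679 to 1014 between the control lines, 1900 to 1229 against the scrambled line, 2374 to 1458 against the untransfected line and 1520 to 625 between passages. The cause of these shifts was not tested. Values at the floor and 2 arrays a line limit what can be read.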

Other observations

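The array of the scrambled line at passage 43 also stood apart for genes outside the interferon response. Of the 30 probe sets that exceeded the other 9 arrays by most, 6 were members, 1 was another interferon-induced gene (Rtp4, a receptor chaperone, with a level of 7.96 against 5.11 to 6.54 elsewhere), 5 had no single symbol and 18 were others. The Wnt antagonist gene Sfrp2 exceeded the next array by 1.62 on the log2 scale, the matrix protein gene Dpt by 1.49, the carboxypeptidase gene Cpz by 1.56, the platelet-derived growth factor receptor gene Pdgfra by 1.12 and the complement protease gene C1s by 1.07. These are values of 1 array, chosen by their size, with no test.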
